A study of Sus scrofa with 6 samples.

Results

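RNA levels of chemokines, interleukins and their receptors were compared between stromal cell cultures from pig jaw marrow and from pig tibia marrow. A gene was taken when a probe set carried its symbol alone and the symbol began with CCL, CXCL, CCR, CXCR or IL and a number. CXCL12 and IL10RA were left out. This gave 96 probe sets for 91 genes, out of 10873 with a name. Where a gene had several, the one with the highest mean level was used. The match was by name, so it also took IL4I1, an enzyme, and soluble binding proteins such as IL18BP. CCR1, IL1B and IL11 had no probe set with a single symbol and are outside the set. IL17RD, whose symbol is repeated for its probe set, was treated as having several symbols and is not among the 91.

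The 6 primary cultures held mesenchymal stem cells, which are stromal cells that stick to plastic. The donors were American Yorkshire pigs, female and 4 months old. The mandibular group held 3 cultures from marrow of the mandibular symphysis, the front midline of the lower jaw, and the tibial group 3 cultures from the tibia. All were at passage 0, grown to 80% confluence and untreated as far as the labels say. Marrow of both sites came from 3 pigs, but the labels do not say which number belongs to which pig. The arrays were therefore treated as unpaired, and tests that assume independent arrays do not take a shared pig into account. Cells were plated on plastic without sorting, so other adherent marrow cells could remain.

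Chemokines are small secreted proteins that direct the movement of cells through G protein-coupled receptors. The CC and CXC families differ in the spacing of their first cysteines: CC ligands mainly attract monocytes, eosinophils and lymphocytes, and many CXC ligands attract neutrophils or activated T cells. Interleukins act through receptor chains that are often shared. The common gamma chain IL2RG serves several lymphocyte cytokines, gp130 (IL6ST) serves the IL6 family, and IL1 receptors signal through MYD88 to NF-kB. Marrow stromal cells are known as a source of CCL2, IL6, IL7 and CXCL12, with which they hold and feed blood cells.

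The values are log2 levels as deposited, normalised by the authors so that the arrays have nearly equal distributions. Array medians lay between 5.63 and 5.71 and lower quartiles between 3.86 and 3.94. Of the 91 genes, 26 had a mean below the smallest of these quartiles. The values hold no measure of detection, so levels that low cannot be separated from background. Stromal identity was checked with 12 measured genes, whose mean lay between 8.60 and 9.24 on all 6 arrays. THY1, between 10.50 and 10.70, and COL1A1, between 13.24 and 13.49, were steady. VCAM1, between 3.68 and 9.52, NT5E, between 7.05 and 9.13, and MCAM, between 6.28 and 8.55, varied widely, and CXCL12 lay between 4.14 and 5.06.

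Positional genes on 2 arrays went against their labels. The 2 genes shown were picked with their values known. HOXA9, a trunk and limb gene, measured 4.41, 6.97 and 4.35 on mandibular 1 to 3 and 6.67, 7.37 and 5.10 on tibial 1 to 3. ALX1, a craniofacial gene, measured 8.08, 3.86 and 7.44 against 3.90, 3.54 and 7.97. The arrays labelled mandibular 2 and tibial 3 thus each lay with the arrays of the other site. Differences below rest on all 6 arrays unless said otherwise, and those without both arrays follow after the families.

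Between the labelled sites, none of the 91 genes passed the test. By limma 0 were called and the adjusted p was 0.9995 for each. The background was also 0 of 27558 probe sets, or 0.0%. At an unadjusted p under 0.05 there were 6 genes, 6.59% of the set, where the background was 3.03% of all probe sets. These were CCL14, CCL24, CCR9, CCL3L1, IL23R and IL18, all lower in mandibular cultures. The values of the sites did not overlap for 8 genes, 8.79% of the set, close to the background of 6.92%. Lower in mandibular cultures among these were CCL14, CCL22, CCL24, CCR9, IL20RB and IL23R, and higher were CXCL11 and IL1RAPL2. In direction, 61 of 91 genes, 67.0%, were lower in mandibular cultures, where the background was 49.0%. The size was small: the median difference, mandibular minus tibial, was -0.06, against 0.01 over the named genes. Without tibial 1 the median was -0.02 and 46 of 91 were lower.

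The set varied widely between arrays. The range over the 6 arrays reached 1 log2 unit, a factor of 2 in level, for 28 genes. That is 30.8% of the set, against 14.9% of named genes. For 15 genes, or 16.5%, it reached 2 units, against 4.35% of named genes. Of these 28 genes, 10 had their highest level on tibial 1, 7 on mandibular 2 and 6 on tibial 2. The other 5 were highest on tibial 3, mandibular 1 or mandibular 3. Within the mandibular arrays, mandibular 2 was the highest for 20 of the 28, 71.4%, against 44.6% of the 1623 named genes with such a range. Within the tibial arrays, tibial 3 was the lowest for 20 of the 28, 71.4%, against 46.0%. Within each labelled site, the same array thus lay at the edge for most of these genes.

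**Figure D1:**
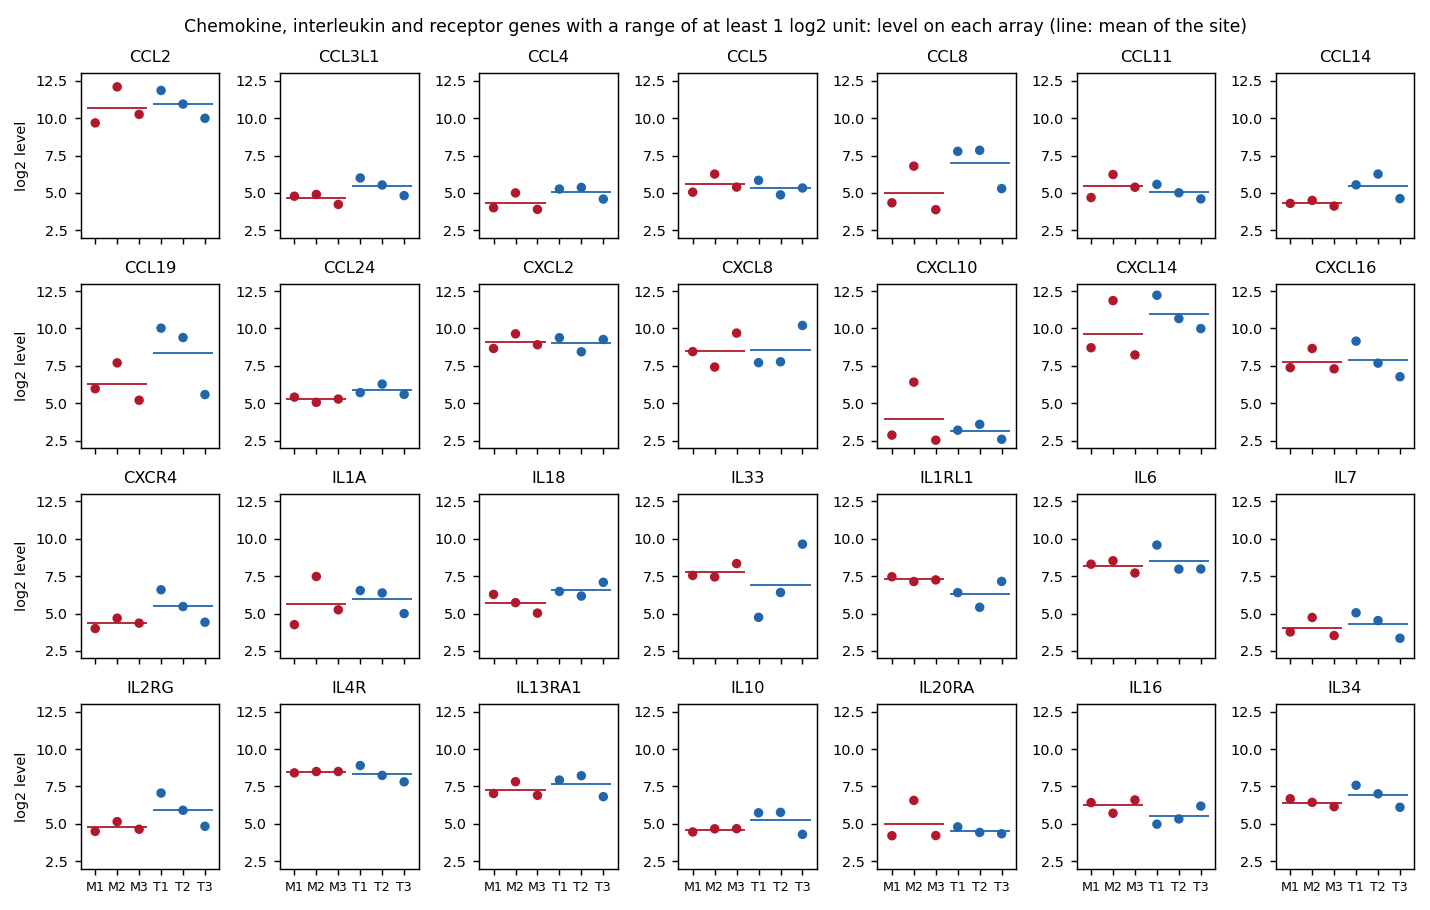
Log2 level of each of the 28 chemokine, interleukin and receptor genes that ranged over at least 1 log2 unit on each array (M1 to M3, mandibular; T1 to T3, tibial), with the mean of each site as a line. In CCL8, CCL19 and CXCL14 the point of M2 lies above M1 and M3, and that of T3 lies below T1 and T2.

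**Figure D2:**
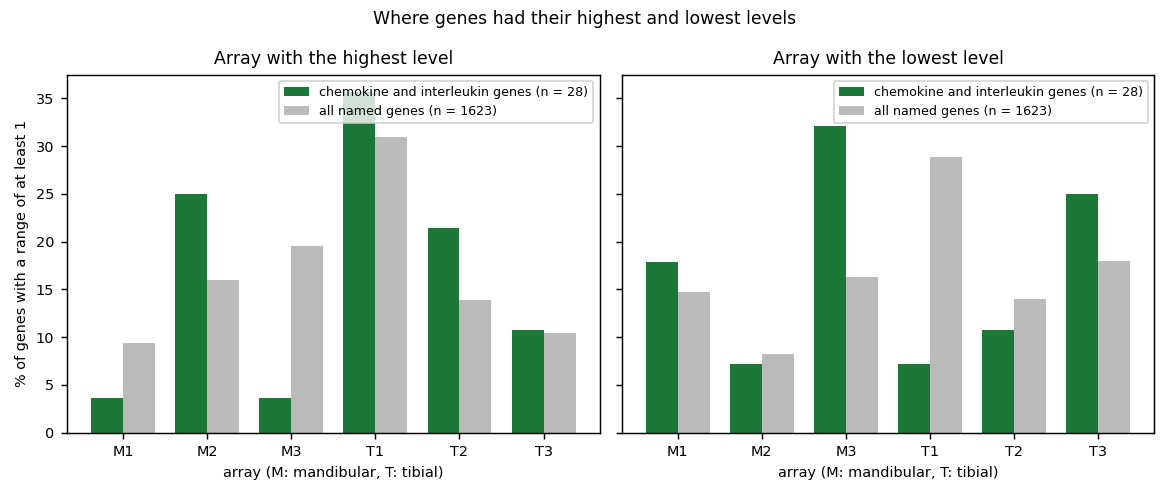
Share of genes whose highest level (left) and lowest level (right) fell on each array, among 28 chemokine and interleukin genes and 1623 named genes that ranged over at least 1 log2 unit. For the first set 35.7% were highest on T1 and 21.4% on T2, and 3.57% each on M1 and M3.

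Among the CC chemokines, 15 of 18 were lower in mandibular cultures, with a median difference of -0.20, and none was called. CCL8, a monocyte attractant also called MCP-2, measured 4.34, 6.79 and 3.88 on mandibular 1 to 3 and 7.78, 7.85 and 5.29 on tibial 1 to 3. The levels on tibial 1 and tibial 2 were the highest, but the sites overlapped, since mandibular 2 lay above tibial 3. The mandibular mean was 5.0 ± 1.57 (SD, n = 3) and the tibial mean 6.98 ± 1.46 (SD, n = 3). The difference of -1.97 (SE 0.96), or 3.92-fold, did not pass (limma, adjusted p = 0.9995). It was -2.87 without mandibular 2 and -2.81 without tibial 3.

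CCL19, a ligand of CCR7 that guides dendritic cells and T cells, had the widest range of the CC chemokines. It measured 5.97, 7.70 and 5.20 in mandibular cultures and 10.02, 9.39 and 5.58 in tibial cultures. Again tibial 1 and tibial 2 stood above all other arrays, and tibial 3 lay inside the mandibular range. The difference was -2.04 (SE 1.22), or 4.12-fold. It ranged from -1.20 without tibial 1 to -3.42 without tibial 3. The other CCR7 ligand on the array, CCL21, which RefSeq (Sscrofa11.1) places directly beside CCL19, had a range of 0.86. The receptor CCR7 had a range of 0.54 and a difference of 0.05.

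CCL14 and CCL24 were the CC chemokines with no overlap between sites besides CCL22. CCL14, a monocyte attractant, measured 4.30, 4.50 and 4.12 in mandibular and 5.54, 6.26 and 4.62 in tibial cultures, a difference of -1.17 (SE 0.39). CCL24, the eosinophil attractant eotaxin-2, measured 5.41, 5.06 and 5.28 against 5.71, 6.28 and 5.59, a difference of -0.61 (SE 0.21). For both, every tibial value exceeded every mandibular value, by the least on tibial 3. Without tibial 2 the differences were -0.78 and -0.40. CCL22 differed by only -0.13.

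The macrophage inflammatory proteins CCL3L1 and CCL4, neighbours in RefSeq with no protein-coding gene between them, had similar orders of arrays. CCL3L1 measured 4.78, 4.90 and 4.23 in mandibular and 6.0, 5.53 and 4.82 in tibial cultures, a difference of -0.82 (SE 0.32). CCL4 measured 4.01, 5.0 and 3.90 against 5.26, 5.37 and 4.59, a difference of -0.77 (SE 0.34). Single omissions moved these to between -1.13 and -0.54 for CCL3L1 and between -1.12 and -0.57 for CCL4. In each, the array labelled mandibular 2 was the highest of its site and lay above tibial 3. As close paralogues they may share probes, which was not tested.

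CCL2, the main monocyte attractant of stromal cells, and CCL11, or eotaxin, lie near CCL8 in RefSeq. The order is CCL1, CCL8, CCL11 and CCL2, with no protein-coding gene between them. CCL2 measured 9.68, 12.09 and 10.25 in mandibular and 11.85, 10.94 and 9.99 in tibial cultures. CCL11 measured 4.69, 6.23 and 5.38 against 5.57, 5.01 and 4.60. In both, mandibular 2 was the highest of all 6 arrays. The site differences were -0.25 (SE 0.71) for CCL2 and 0.37 (SE 0.42) for CCL11. Omitting mandibular 2 turned CCL11 to -0.03 and moved CCL2 to -0.96, while CCL2 was 0.24 without mandibular 1. CCL1, on the other side of CCL8, had a range of 0.39.

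CCL5, or RANTES, a T cell and monocyte attractant, was also highest on mandibular 2. It measured 5.05, 6.26 and 5.39 in mandibular and 5.84, 4.87 and 5.33 in tibial cultures, with a difference of 0.22 (SE 0.37) that was -0.13 without mandibular 2. CCL20, which attracts CCR6-bearing cells, measured 2.44, 3.37 and 2.54 against 2.70, 2.44 and 2.40, a difference of 0.27 (SE 0.26). Levels as low as those of CCL20 cannot be separated from background. Counting CCL20, 9 CC chemokines had a range under 1 unit, with means between 2.65 and 5.45.

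The 7 CXC chemokines did not share a direction, with 3 lower in mandibular cultures and a median difference of 0.04. CXCL14, a chemokine made by stromal and epithelial cells, measured 8.71, 11.86 and 8.23 in mandibular and 12.22, 10.66 and 9.99 in tibial cultures. Mandibular 2 and tibial 1 were the highest arrays, and mandibular 1 and mandibular 3 the lowest. The difference was -1.36 (SE 1.02), with -2.49 without mandibular 2 and -0.67 without tibial 1. CXCL16, a transmembrane chemokine and ligand of CXCR6, measured 7.38, 8.66 and 7.30 against 9.15, 7.68 and 6.77, and all mandibular values lay inside the tibial range. Its difference was -0.08 (SE 0.65), with -0.63 without tibial 3 and 0.56 without tibial 1, so it has no settled direction. Its receptor CXCR6 had a range of 0.41.

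CXCL8, or interleukin-8, the chief neutrophil attractant, had another order of arrays. It measured 8.45, 7.42 and 9.69 in mandibular and 7.71, 7.77 and 10.20 in tibial cultures. Tibial 3 and mandibular 3 were the highest and mandibular 2 the lowest. The mean was 8.52 ± 1.14 (SD, n = 3) against 8.56 ± 1.42 (SD, n = 3), a difference of -0.04 (SE 0.82). That value ranged from -0.63 to 0.78 when single arrays were left out.

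CXCL2, also a neutrophil attractant, measured 8.66, 9.64 and 8.91 in mandibular and 9.38, 8.44 and 9.26 in tibial cultures, a difference of 0.04 (SE 0.34). Its 4 probe sets shared their highest arrays but not the rest of the order. Another of them repeated these values exactly. A further probe set, under a different gene number, measured 6.13, 8.39 and 5.95 against 7.86, 5.88 and 6.07, with mandibular 2 and tibial 1 well above the rest. The remaining probe set, under the same gene number as the one used, measured 5.92, 7.27 and 6.03 against 7.22, 6.11 and 6.14. It too was highest on mandibular 2 and tibial 1. Pig CXCL2 is thus uncertain here, since its probe sets differ even under the same gene number. CXCR2, a receptor of CXCL8 and CXCL2, had a range of 0.35 and a mean of 3.90.

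The interferon-induced ligands of CXCR3 were each highest on mandibular 2. CXCL10 measured 2.87, 6.41 and 2.53 in mandibular and 3.20, 3.59 and 2.59 in tibial cultures, so 1 array lay far above the other 5. CXCL11 measured 3.35, 3.89 and 3.30 against 3.16, 3.27 and 3.25. CXCL9 measured 2.46, 3.10 and 2.27 against 2.31, 2.38 and 2.39. The values of the sites did not overlap for CXCL11, and RefSeq places CXCL10 and CXCL11 side by side. Apart from CXCL10 on mandibular 2, all these levels were near or below the lower quartile of the arrays. The difference of CXCL10 was 0.81 (SE 0.99) and turned to -0.43 without mandibular 2. Those of CXCL11 and CXCL9, 0.29 (SE 0.18) and 0.25 (SE 0.22), were 0.10 and 0.01 without it. The mean of 20 interferon response genes moved with them: it was 7.99 on mandibular 2 and between 5.65 and 6.35 on the other 5 arrays. Its part in these levels was not tested. CXCR3 itself had a range of 0.62 and a difference of 0.02.

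Of 8 chemokine receptors in the set, CXCR4 alone had a range above 1 unit. CXCR4, the receptor of CXCL12 that holds blood cells in marrow, measured 4.00, 4.69 and 4.36 in mandibular and 6.59, 5.47 and 4.42 in tibial cultures. Tibial 1 and tibial 2 were above all mandibular arrays, and tibial 3 lay among them. The difference was -1.14 (SE 0.52), or 2.21-fold, and -0.60 without tibial 1. CCR9, the receptor of CCL25, measured 4.38, 4.53 and 4.34 against 5.08, 4.60 and 4.82, a difference of -0.41 (SE 0.15) without overlap. Its ligand CCL25 had a range of 0.29. Outside the set, a probe set with the symbols of both CCR1 and XCR1 had a range of 4.63. It measured 4.27, 4.72 and 3.88 in mandibular and 8.5, 6.76 and 4.26 in tibial cultures, a difference of -2.22 (SE 0.98). The probe set of XCR1 alone had a range of 0.66.

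The IL1 family holds alarmins, released by damaged or activated cells, and the receptors that sense them. IL33, a nuclear alarmin, measured 7.55, 7.45 and 8.34 in mandibular and 4.75, 6.41 and 9.64 in tibial cultures. Its range of 4.89 was the widest of the 91 genes, and both extremes were tibial arrays. The difference of 0.84 (SE 1.14) went to 2.20 without tibial 3 and turned to -0.25 without tibial 1. IL1RL1, the receptor of IL33, measured 7.46, 7.14 and 7.25 against 6.40, 5.42 and 7.15. As for IL33, tibial 1 and tibial 2 were the lowest arrays, and the tibial 3 value fell within the mandibular range. It differed by 0.95 (SE 0.41), and by 0.50 without tibial 2.

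IL1A, an alarmin that acts through IL1R1, measured 4.26, 7.48 and 5.25 in mandibular and 6.54, 6.38 and 5.0 in tibial cultures. Mandibular 2 was the highest, tibial 1 and tibial 2 followed, and the difference was -0.31 (SE 0.84), turning to 0.39 without mandibular 1. IL1R1 measured 8.41, 9.17 and 9.19 against 8.53, 8.66 and 8.65, a difference of 0.31 (SE 0.22). IL18, a cytokine of macrophages and epithelia, measured 6.28, 5.73 and 5.03 against 6.48, 6.17 and 7.09, a difference of -0.90 (SE 0.36) that was -0.57 without mandibular 3. Only mandibular 1 reached into its tibial range. IL18R1 had a mean of 2.53, and the inhibitor IL18BP a range of 0.51. IL1RAPL2, a synaptic relative of the IL1 receptors, measured 2.30, 2.30 and 2.34 against 2.13, 2.21 and 2.26, a difference of 0.11 (SE 0.10) at the level of background.

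The IL6 and IL12 families varied little apart from IL6. IL6, made by stromal cells in support of blood cells and osteoclasts, measured 8.30, 8.53 and 7.71 in mandibular and 9.58, 7.97 and 7.98 in tibial cultures. Tibial 1 stood alone above the other 5 arrays. The difference was -0.33 (SE 0.47), and without tibial 1 it turned to 0.20. Its signalling chain IL6ST measured 9.71, 9.97 and 9.66 against 9.86, 9.74 and 9.49, a difference of 0.08 (SE 0.15) that was -0.01 without mandibular 2 and -0.02 without tibial 3. All 7 receptor chains of these families had a range under 1 unit. IL11RA differed by -0.31 and IL27RA by -0.11. IL23R measured 2.08, 2.32 and 2.01 against 2.33, 2.50 and 2.82, a difference of -0.42 (SE 0.17) without overlap but at background level.

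Among cytokines of the common gamma chain and type 2 cytokines, IL7, the lymphocyte growth factor of marrow stroma, measured 3.77, 4.74 and 3.53 in mandibular and 5.05, 4.53 and 3.35 in tibial cultures. Its order of arrays was like that of CCL2, with mandibular 2, tibial 1 and tibial 2 on top and a difference of -0.30 (SE 0.49), which turned to 0.07 without tibial 1. The other 7 ligands of this group, among them IL2, IL4 and IL15, had means between 2.35 and 4.51 and ranges up to 0.68. IL2RG, the shared chain itself, measured 4.50, 5.15 and 4.64 against 7.06, 5.91 and 4.84. Tibial 1 and tibial 2 again stood apart, and tibial 3 lay below mandibular 2. The difference was -1.17 (SE 0.53), or 2.25-fold, and -0.61 without tibial 1. The receptor chain of IL7, IL7R, had a mean of 2.84 and a range of 0.36.

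IL4R and IL13RA1 form a receptor for IL4 and IL13. IL4R measured 8.41, 8.50 and 8.50 in mandibular and 8.90, 8.24 and 7.81 in tibial cultures, a difference of 0.15 (SE 0.26) that was -0.10 without tibial 3. IL13RA1 measured 7.03, 7.82 and 6.91 against 7.93, 8.22 and 6.82, a difference of -0.40 (SE 0.41) that was -0.82 without tibial 3 and -0.12 without tibial 2. The mandibular values of IL4R were nearly equal, whereas IL13RA1 had mandibular 2 near tibial 1 and tibial 3 near mandibular 3. The decoy receptor IL13RA2 had a mean of 2.15.

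In the IL10 and IL17 families, IL10 and IL20RA varied. IL10, an anti-inflammatory cytokine of macrophages and lymphocytes, measured 4.46, 4.67 and 4.68 in mandibular and 5.74, 5.77 and 4.30 in tibial cultures, a difference of -0.67 (SE 0.39). Without tibial 3 this was -1.15, and without tibial 2 it was -0.42. IL20RA, a receptor chain for IL19, IL20 and IL24, measured 4.21, 6.57 and 4.22 against 4.80, 4.43 and 4.34. Only mandibular 2 was high, and the difference of 0.48 (SE 0.63) turned to -0.31 without it. Its partner chain IL20RB measured 4.25, 4.42 and 4.26 against 4.83, 4.45 and 4.54, a difference of -0.30 (SE 0.14) without overlap. IL28B, an old symbol of an interferon lambda, measured 6.06, 5.61 and 5.68 against 5.80, 5.57 and 5.54, a difference of 0.14 (SE 0.16). All 8 genes of the IL17 family in the set had ranges under 1 unit. IL17RD, outside the set, measured 5.37, 6.41 and 4.38 against 6.23, 6.36 and 4.56, a range of 2.03. The shared receptor IL17RA measured 9.54, 9.26 and 9.70 against 9.31, 8.96 and 9.56, a difference of 0.22 (SE 0.19).

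The remaining genes stand outside these families. IL16, a CD4 ligand cut from a larger cell protein, measured 6.42, 5.71 and 6.60 in mandibular and 4.98, 5.33 and 6.19 in tibial cultures, a difference of 0.75 (SE 0.36) that was 0.49 without tibial 1. Tibial 1 and tibial 2 were lowest, as for IL1RL1. IL34, a ligand of the macrophage receptor CSF1R, measured 6.68, 6.44 and 6.15 against 7.58, 7.01 and 6.11, a difference of -0.48 (SE 0.37) that was -0.87 without tibial 3. IL4I1, an amino acid oxidase induced by IL4, measured 5.54, 5.36 and 5.33 against 5.40, 5.15 and 5.01, a difference of 0.22 (SE 0.14).

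On the 4 arrays that remain without mandibular 2 and tibial 3, 3 of 91 genes were called, 3.30% of the set, where the background was 195 of 27558 probe sets, or 0.708%. All 3 were CC chemokines and lower in mandibular cultures. CCL8 differed by -3.71 (SE 0.21, limma adjusted p = 0.00626), CCL19 by -4.12 (SE 0.34, limma adjusted p = 0.0138) and CCL4 by -1.36 (SE 0.17, limma adjusted p = 0.043). This comparison has 2 arrays against 2, and the arrays left out were picked by measured levels of positional genes. It therefore describes these 4 arrays and is no test of the labelled sites. In it 64 of 91 genes were lower in mandibular cultures and the median was -0.10. The values of the sites did not overlap for 41 genes, 45.1%, where the background was 37.3% of all probe sets. Genes higher in mandibular cultures, none called, included IL33 at 2.36 (SE 0.57), IL1RL1 at 1.44 (SE 0.34), IL16 at 1.36 (SE 0.20) and CXCL8 at 1.33 (SE 0.40).

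Other genes, none of them called, also moved when these arrays were left out. Among ligands lower in mandibular cultures, CXCL14 differed by -2.97 (SE 0.51), IL1A by -1.71 (SE 0.34), CCL14 by -1.69 (SE 0.27), CCL2 by -1.43 (SE 0.36), CCL3L1 by -1.26 (SE 0.27), IL10 by -1.18 (SE 0.18), IL7 by -1.15 (SE 0.24) and CXCL16 by -1.07 (SE 0.47). Among receptor chains, IL2RG differed by -1.91 (SE 0.38), CXCR4 by -1.85 (SE 0.39) and IL13RA1 by -1.10 (SE 0.19). Among genes highest on mandibular 2, several changed sign: CXCL10 to -0.70 (SE 0.22), IL20RA to -0.40 (SE 0.20), CCL11 to -0.26 (SE 0.31), CCL5 to -0.14 (SE 0.35) and CXCL2 to -0.13 (SE 0.33). IL4R, highest on tibial 1, also changed sign, to -0.12 (SE 0.26).

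**Figure D3:**
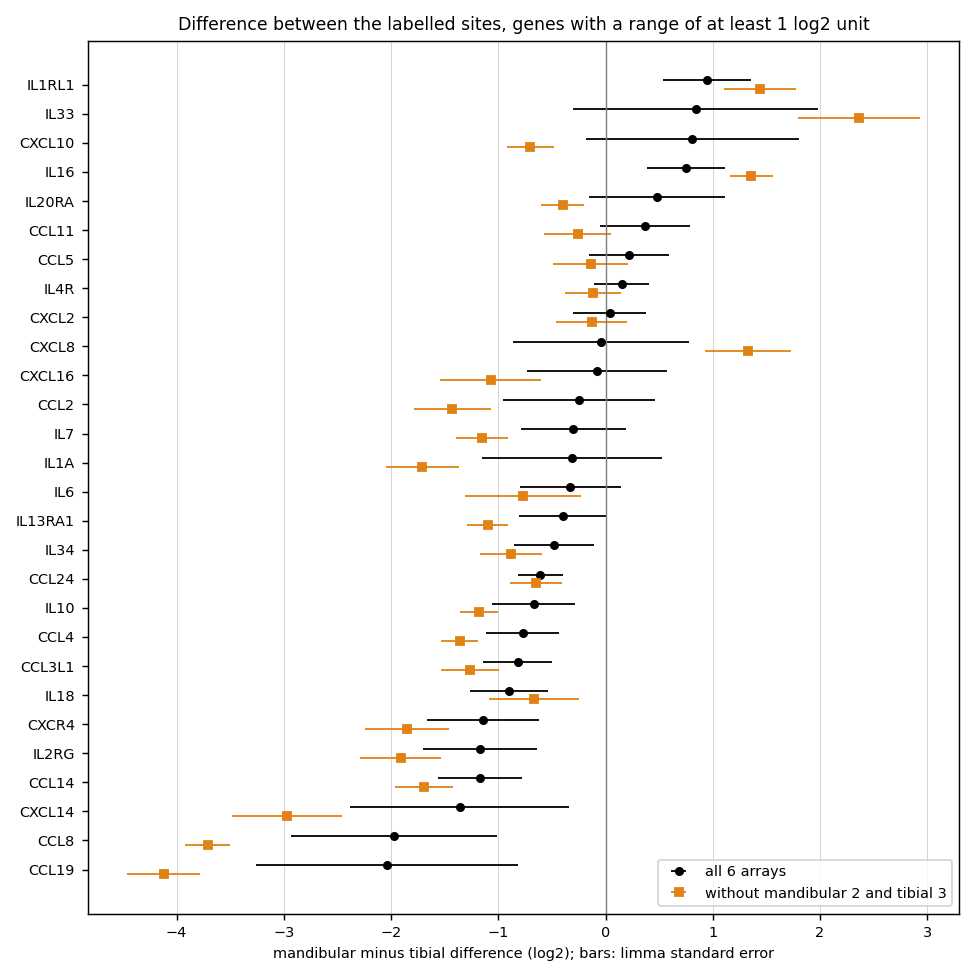
Mandibular minus tibial difference (log2) with its limma standard error for the 28 genes that ranged over at least 1 log2 unit, with all 6 arrays (black circles) and without the arrays labelled mandibular 2 and tibial 3 (orange squares). CCL8 moves from -1.97 to -3.71 and CCL19 from -2.04 to -4.12, and CXCL10 changes sign from 0.81 to -0.70.

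Macrophage and monocyte genes moved with several of these genes. Of 21 measured genes of that list, 20 were lower in mandibular cultures, with a median of -1.96 and none called. On the 4 arrays without mandibular 2 and tibial 3 the median of this list was -3.17. There 14 of 21 genes were called (limma adjusted p = 0.00598 for C1QA), where the background was 0.708% of all probe sets. As above, this describes those 4 arrays and is no test of the labelled sites. The list mean lay between 5.12 and 6.10 on mandibular arrays and between 5.52 and 8.26 on tibial arrays. By array it was 5.12, 6.10 and 5.13 on mandibular 1 to 3 and 8.26, 7.62 and 5.52 on tibial 1 to 3. Of its genes, SPI1 measured 5.42, 6.41 and 5.78 in mandibular and 9.11, 8.11 and 6.27 in tibial cultures. PTPRC measured 3.42, 4.86 and 3.71 against 7.66, 6.96 and 3.91, and C1QA 6.74, 8.59 and 6.66 against 10.62, 10.33 and 7.33. In each, tibial 1 and tibial 2 were highest, but mandibular 2 lay above tibial 3, so the sites overlapped. Not all genes of the list moved this way. CD86 went the other way, with 9.85, 7.80 and 9.87 in mandibular and 8.44, 7.44 and 9.64 in tibial cultures. MARCO and ITGAM varied little, with ranges of 0.66 and 0.57. CCL8, CCL19, CCL3L1, CCL4, CXCR4, IL2RG and IL10 were, like this list, highest on tibial 1 and tibial 2. In bulk RNA, more cells of a type and more RNA per cell cannot be told apart. The part of macrophages in these levels was not tested.

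Other marker lists moved less. The lymphocyte list of 14 genes had means between 4.37 and 4.49 on mandibular and between 4.46 and 4.92 on tibial arrays. Its CD3G lay between 2.59 and 3.18, while NKG7 differed by -2.54 (SE 1.00). The endothelial list lay between 5.0 and 5.06 against between 5.0 and 5.43, with a median of -0.25. All 6 measured granulocyte genes were lower in mandibular cultures, at a median of -0.37 and none called. Well beyond this median, S100A12 differed by -1.96 (SE 0.83) and LCN2 by -1.28 (SE 0.61). The mean of 10 immediate early and stress genes lay between 9.32 and 9.88 on all arrays. Cell cycle genes ran the other way, with 11 of 11 higher in mandibular cultures, a median of 1.01, and lowest means, 6.13 and 6.71, on tibial 1 and tibial 2. The part of these lists in the levels above was not tested.

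**Figure D4:**
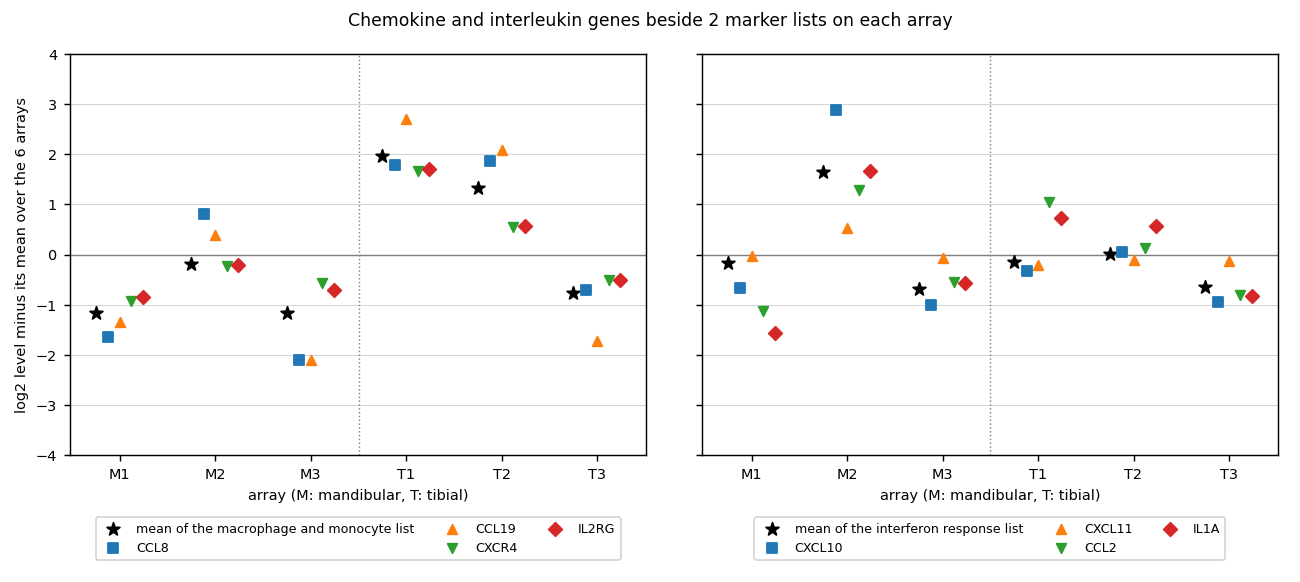
Log2 level on each array minus the mean over the 6 arrays, for CCL8, CCL19, CXCR4 and IL2RG beside the mean of the macrophage and monocyte list (left), and for CXCL10, CXCL11, CCL2 and IL1A beside the mean of the interferon response list (right). On the left the highest points are on T1 and T2, and on the right all 5 series are highest on M2. The genes shown were picked from the set and do not describe it. CCL2 and IL1A were also high on T1, at 11.85 and 6.54, where the interferon list mean was 6.18, near its 6.16 on M1.

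No gene of the signalling pathways below these receptors was called between the labelled sites. Of 25 measured genes between the IL1 receptor and NF-kB, 13 were higher and 12 lower in mandibular cultures, with a median of 0.01 and none called. The adaptor gene MYD88 differed by -0.20 (SE 0.15), and TNFAIP3, a feedback inhibitor that NF-kB induces, by -0.51 (SE 0.44). Of 17 JAK-STAT genes, 9 were higher and 8 lower, with a median of 0.01 and none called. JAK3, the kinase that pairs with IL2RG, differed by -0.64 (SE 0.34) and the feedback gene CISH by -0.71 (SE 0.41).

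Cytokines and receptors with other names, 22 measured, were lower in mandibular cultures for 15, with a median of -0.12 and none called. CSF2RB, a shared chain of receptors for IL3, IL5 and GM-CSF, differed by -0.88 (SE 0.33), CSF1R, also on the macrophage list, by -1.89 (SE 0.79) and EBI3 by -0.37 (SE 0.14). Of 9 measured chemokines and receptors outside the naming rule, 6 were higher and 3 lower, with a median of 0.04. CMKLR1, the chemerin receptor, differed by -1.68 (SE 0.72), and AMCF-II, a pig neutrophil chemokine, by 0.53 (SE 0.67). Of genes that hold or cut chemokines, 4 were measured and none was called, with SDC4 at 0.26 (SE 0.23) and the protease DPP4 at -0.35 (SE 0.46). With 3 arrays a site, a difference that did not pass is not shown to be absent.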

How the data were processed

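Total RNA of 6 cultures was measured on Affymetrix porcine arrays, 1 array for each culture. As deposited, each of 27558 probe sets has a log2 level on each array. The submitters' processing notes name RMA, the Affymetrix Expression Console and, in version 3.0, the Transcriptome Analysis Console as the authors' tools. RMA equalises the distributions of the arrays, so a shift shared by all genes is removed. Coordinates are left out, with the settings and genome build not given in the sources used here. No protein or promoter sequences were used here.

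Symbols came from GEO's platform annotation: 13157 probe sets had 1 symbol, 523 several and 13878 none. RefSeq (Sscrofa11.1) gave the order of neighbouring genes and, through the gene number, changed 7 symbols used for counting named genes and for the other lists. The gene set itself was matched on the platform symbols. Differences were fitted with limma 3.58.1 in R 4.3.3 (lmFit, eBayes), two-sided, over all probe sets, with Benjamini-Hochberg adjustment and a threshold of 0.05. The fit was also run on simulated data with independent noise on each array. Those data held no shared pig and no arrays lying with the other site. SE is limma's standard error. P-values measure the spread between cultures that share 3 pigs.

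Values on every array are given for CCL8, for up to 10 genes in each direction with the smallest p, for genes that ranged over 1 log2 unit or more, and for a fixed set of well-known members. From other lists up to 4 genes with the smallest p could be named. Exceptions are genes named for contrast as ligand, receptor or neighbour, and stromal, positional and marker genes, which were chosen after their values were seen. The gene set, lists and rules were chosen with earlier results of these data known. Alternatives were a replicate block, variance settings, array weights, median centring, low-level filters, other probe set rules and leaving out arrays.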

Additional observations from a re-analysis of the deposited data

How the results depend on the processing

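With all 6 arrays, no gene of the set was called under any variance setting, array weighting, centring, low-level filter, probe set rule or single omission. The count called was 3 without mandibular 2 and tibial 3, an alternative chosen after the data were seen, with 195 probe sets called in all and 41 genes without overlap, 45.1% of the set against 37.3% of all probe sets. Single omissions gave 0 to 2 called probe sets and 11 to 26 genes without overlap, a count that grows when fewer arrays are compared. The share over all probe sets for these omissions is not given here, so that count is not read as a result about the set. Genes without overlap were 5 of 60 with a mean level of at least 4 and 1 of 40 with a mean level of at least 5. Most genes without overlap thus had a mean level under 5. The share over all probe sets at these filters is not given here. The median difference of the set stayed between -0.13 and -0.02. CCL20 turned from 0.27 to -0.08 without mandibular 2 and tibial 3, and ranged from -0.02 to 0.44 over single omissions; its level is near background. The 21 differences followed through the alternatives were those of CCL8 and of the 10 genes in each direction with the smallest p. Of 300 alternatives for them, 296 kept direction and side of the threshold. The others are CCL20 above and the calls of CCL8 and CCL4 without mandibular 2 and tibial 3. Genes picked by a small p tend to keep their direction, so this count does not describe the set. Among the genes not followed, CCL2, IL33 and IL6 changed sign on single omissions, and CCL19 was called without mandibular 2 and tibial 3. With the replicate number as a block, 0 genes were called and the median stayed -0.06. Deviations of same-numbered arrays from their site means correlated at -0.03, 0.21 and 0.47, and mandibular 1 correlated best with tibial 3 (0.13). These values cannot decide whether the numbers pair the arrays, since mandibular 2 and tibial 3 lay with the other site. The arrays were left unpaired because the labels do not link the numbers to pigs. Background levels limit 26 of the 91 genes.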
